A study of Homo sapiens with 6 samples.

Results

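In all, 10 genes for enzymes and subunits that write, read or erase chromatin marks or remodel nucleosomes were followed through 6 messenger RNA libraries of 2 human prostate cancer lines. They were EZH2, EZH1, EED, SUZ12, CBX2, DNMT1, DNMT3A, DNMT3B, KDM1A and SMARCA4, found by name among the 58735 gene IDs of the FPKM table through GENCODE release 29. All 10 had a row and all 10 passed the filter on low values, which left 15638 genes. Gene positions given here are those of that annotation in GRCh38. The C4-2B MDVR cells derive from C4-2B prostate cancer cells and resist enzalutamide, a drug given for prostate cancer, and H660 is a line of neuroendocrine prostate cancer. A control siRNA library, a PLXND1 siRNA 1 library and a PLXND1 siRNA 2 library were made from each line. PLXND1 encodes Plexin D1, a receptor for semaphorins, and the series asks what it does for the shift of treatment-resistant prostate cancer towards a neural state. No further genotype, drug or time is given for any group, and the labels do not say that libraries came from separate cultures. The p-values therefore measure the spread between these libraries only.

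Polycomb repressive complex 2 (PRC2) methylates lysine 27 of histone H3, with EZH2 or EZH1 as the enzyme and EED and SUZ12 as the other core subunits, and the CBX proteins of PRC1 bind that mark. DNMT1 copies DNA methylation onto newly replicated strands, while DNMT3A and DNMT3B set it anew. KDM1A (LSD1) removes methyl groups from lysine 4 of histone H3, and SMARCA4 (BRG1) is an ATPase of the SWI/SNF remodelling complexes. EZH2 in particular is much studied in neuroendocrine prostate cancer.

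Recovered totals ran from 17655802 to 24105369 fragments per library. PLXND1 stood at 7.40 FPKM in the C4-2B MDVR control, 1.57 with siRNA 1 and 3.10 with siRNA 2, and at 9.13, 7.62 and 7.54 in H660. Its decrease did not pass in either line (limma, adjusted p = 0.711 in C4-2B MDVR and 1.0 in H660). In H660 the siRNA libraries thus kept 83.5% and 82.6% of the control level, against 21.2% and 41.8% in C4-2B MDVR. The 6 luminal prostate markers summed to between 572 and 1213 FPKM in C4-2B MDVR and between 0.476 and 0.687 in H660. The 6 neuroendocrine markers summed to between 3.73 and 5.48 FPKM in C4-2B MDVR and between 687 and 718 in H660. The 7 markers of other cells summed to between 2.22 and 6.0 FPKM over all libraries, and DCN, COL1A2, PTPRC and PECAM1 were at or near 0. Mitochondrial genes gave 3.38% of fragments in the C4-2B MDVR control, against 6.83% to 9.64% in the other 5 libraries, so that control stood apart.

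The proximal promoters of EZH2, SUZ12 and DNMT1 are shown because, of the 9 members with a window in the RefSeq promoter table (GRCh38.p14), they were the 3 that held an E2F-type word. E2F factors bind such words at genes of DNA replication. Capitals mark the words searched on both strands: TTTCCCGC, TTTGGCGC and TTTCGCGC (E2F type) and CCAAT (the NF-Y word), each or its reverse complement. Each window runs from 250 bases before to 30 bases after the annotated start, 5′ to 3′ on the gene's strand. The EZH2 window is chr7:148884262-148884541 on the minus strand, the SUZ12 window chr17:31936757-31937036 on the plus strand, and the DNMT1 window chr19:10194924-10195203 on the minus strand.
EZH2: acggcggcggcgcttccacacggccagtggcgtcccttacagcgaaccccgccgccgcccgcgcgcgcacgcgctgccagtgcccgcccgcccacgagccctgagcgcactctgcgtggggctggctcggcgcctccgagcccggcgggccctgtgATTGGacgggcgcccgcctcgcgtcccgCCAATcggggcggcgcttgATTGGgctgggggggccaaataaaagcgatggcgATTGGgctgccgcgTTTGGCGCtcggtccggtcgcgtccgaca
SUZ12: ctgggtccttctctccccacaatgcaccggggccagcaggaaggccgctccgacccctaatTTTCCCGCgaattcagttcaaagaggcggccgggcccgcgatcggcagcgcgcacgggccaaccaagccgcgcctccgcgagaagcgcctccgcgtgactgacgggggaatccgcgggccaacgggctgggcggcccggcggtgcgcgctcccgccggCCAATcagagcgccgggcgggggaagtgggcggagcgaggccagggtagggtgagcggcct
DNMT1: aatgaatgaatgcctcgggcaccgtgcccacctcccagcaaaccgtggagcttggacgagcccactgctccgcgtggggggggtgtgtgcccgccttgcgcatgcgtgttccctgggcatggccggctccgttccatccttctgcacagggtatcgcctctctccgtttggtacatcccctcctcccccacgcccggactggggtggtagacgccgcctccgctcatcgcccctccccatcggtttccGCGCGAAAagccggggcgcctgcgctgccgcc
In the EZH2 window the E2F-type word begins at base 2 of the transcript, and 4 CCAAT words on either strand lie upstream of it. The SUZ12 word begins at position −189 from the start, with 1 CCAAT word at −31. In the DNMT1 window the reverse complement GCGCGAAA begins at position −2, and no CCAAT word was found. Of the 35116 windows in the table, 2.61% held an E2F-type word and 33.65% a CCAAT word. The EZH2 window held 45 CpG, SUZ12 37 and DNMT1 27, against a median of 13 over all windows. These matches are letters in a window and were not tested against expression.

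**Figure D1:**
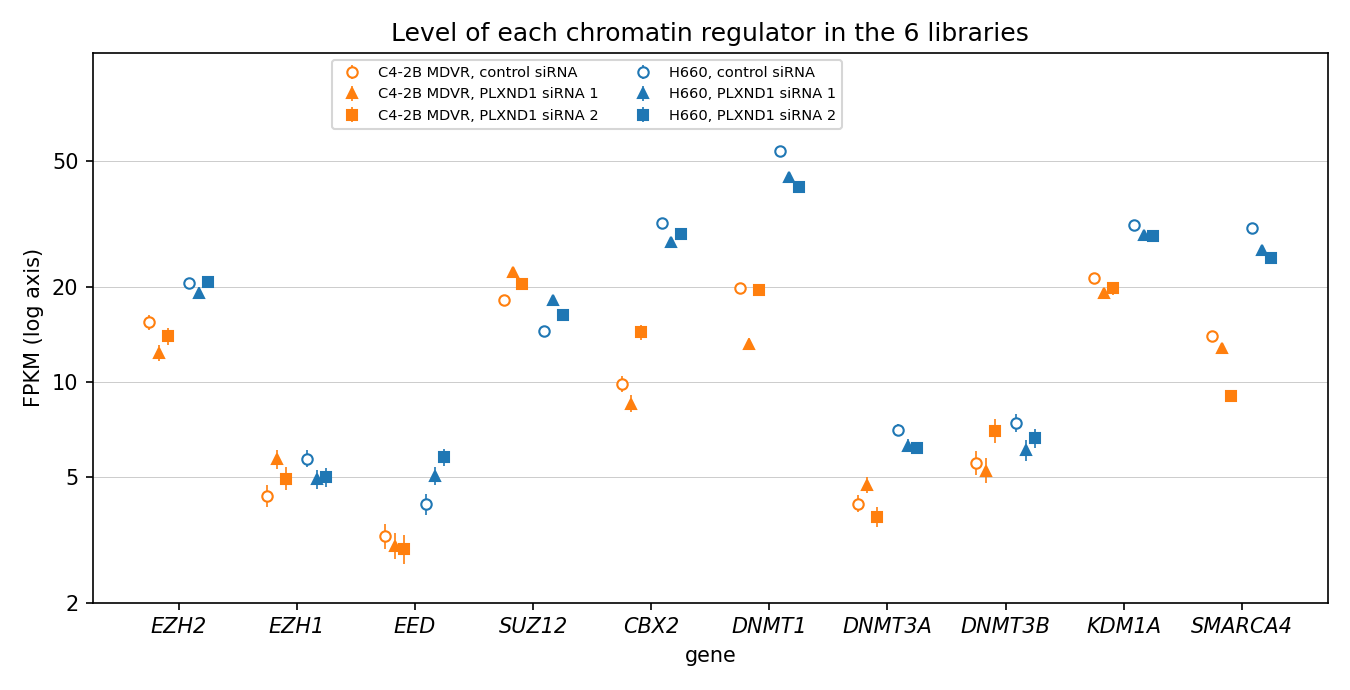
FPKM of each of the 10 regulators (log axis) in the 6 libraries: orange for C4-2B MDVR, blue for H660, open circles for control siRNA, triangles for PLXND1 siRNA 1 and squares for siRNA 2, with bars for the 95% Poisson interval of the fragment number. CBX2, DNMT1 and SMARCA4 show the widest gap between the lines; the H660 libraries of DNMT1 sit between 41.5 and 53.9 FPKM and those of C4-2B MDVR between 13.2 and 19.8.

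The lines differed in most of these genes, and mostly in one direction. By limma on log2(FPKM + 1) across all 6 libraries, with treatment as a covariate, 7 of the 10 were higher in H660, SUZ12 was lower, and EZH1 and DNMT3B did not pass. The background was high: 69.8% of all genes tested passed, 35.2% higher and 34.6% lower in H660, and 72.5% had an unadjusted p under 0.05, as did the same 8 members. The count of 8 of 10 is thus close to the background, and 7 of 10 stood on the higher side against 35.2%. All 10 reached a mean of 1 FPKM in both lines, and of the 11196 genes that did so 27.4% were higher and 35.8% lower in H660. The median difference of the 10 was 0.54 on the log2 scale, against −0.0035 over all genes. In bulk RNA, fewer cells with a transcript and less of it per cell cannot be told apart.

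EZH2 (ENSG00000106462, chromosome 7, 148807383 to 148884321, minus strand), the PRC2 enzyme of dividing cells, stood at 15.4 FPKM in the C4-2B MDVR control, 12.3 with siRNA 1 and 13.9 with siRNA 2. In H660 it stood at 20.5, 19.1 and 20.7. All H660 libraries lay above all C4-2B MDVR libraries, and the difference was 0.51 ± 0.11 on the log2(FPKM + 1) scale (SE, limma, adjusted p = 0.00680). That is 1.45 times in mean FPKM, a modest gap beside those of CBX2 or DNMT1. EZH1 (ENSG00000108799, chromosome 17, 42700275 to 42745049, minus strand), the paralog found mainly in cells that divide little, was at 4.36, 5.68 and 4.94 FPKM in C4-2B MDVR and 5.71, 4.93 and 4.98 in H660. Its ranges overlapped, and its difference of 0.054 had a 95% interval from −0.26 to 0.37 (limma, adjusted p = 0.730). EZH2 exceeded EZH1 in every library, with a ratio of their FPKM from 2.17 to 3.54 in C4-2B MDVR and from 3.60 to 4.15 in H660.

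EED (ENSG00000074266, chromosome 11, 86244544 to 86278813, plus strand), the subunit that binds the finished mark, had the lowest mean FPKM of the 10 in both lines. It was at 3.24, 3.03 and 2.95 FPKM in the control, siRNA 1 and siRNA 2 libraries of C4-2B MDVR and at 4.09, 5.03 and 5.78 in H660. The lines did not overlap, and H660 was higher by 0.54 ± 0.13 (SE, limma, adjusted p = 0.0113). The difference was 0.55 without the H660 siRNA 1 library (adjusted p = 0.0502) and 0.45 without siRNA 2 (adjusted p = 0.0618), so that neither fit passed. SUZ12 (ENSG00000178691, chromosome 17, 31937018 to 32001045, plus strand), which holds the complex together, was at 18.1, 22.3 and 20.5 FPKM in C4-2B MDVR and 14.5, 18.2 and 16.2 in H660. The siRNA 1 library of H660 lay just above the control of C4-2B MDVR, so the ranges touched. SUZ12 was lower in H660 by 0.30 ± 0.10 (SE, limma, adjusted p = 0.0405), a call lost in 10 of the 14 other settings and left-out libraries tried. A partial copy, SUZ12P1, read 3.35 to 7.39 FPKM over the 6 libraries, and how the counting split reads between the copies is not known, so SUZ12 is uncertain. The subunits of one complex thus did not all differ the same way: the ratio of EZH2 to SUZ12 was 0.553 to 0.850 in C4-2B MDVR and 1.05 to 1.42 in H660.

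CBX2 (ENSG00000173894, chromosome 17, 79778132 to 79787983, plus strand), a PRC1 subunit that reads the PRC2 mark, and DNMT1 had the largest line differences of the 10. CBX2 was at 9.86, 8.54 and 14.3 FPKM in C4-2B MDVR and 31.8, 27.8 and 29.4 in H660. The lowest H660 library was well above the highest C4-2B MDVR library, and the difference was 1.39 ± 0.20 (SE, limma, adjusted p = 0.00111), or 2.72 times in mean FPKM. By mean FPKM, a level per exon length, it ranked 6 of the 10 in C4-2B MDVR and 3 in H660. Its paralog CBX7, which was lower in H660, gave a ratio of CBX2 to CBX7 from 0.953 to 1.99 in C4-2B MDVR and from 7.38 to 8.41 in H660.

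DNMT1 (ENSG00000130816, chromosome 19, 10133345 to 10231286, minus strand), the maintenance methyltransferase, had the highest mean FPKM of the 10 in H660. It was at 19.8, 13.2 and 19.6 FPKM in C4-2B MDVR and 53.9, 44.4 and 41.5 in H660. The lines were far apart, with a difference of 1.37 ± 0.16 (SE, limma, adjusted p = 0.000480), or 2.66 times. It was apart from the difference of CBX2 by less than the SE of either, and was the larger of the 2 in 4 of the 14 other settings and left-out libraries. The enzymes that set methylation anew had smaller differences. DNMT3A (ENSG00000119772, chromosome 2, 25227855 to 25342590, minus strand) was at 4.12, 4.71 and 3.72 FPKM in C4-2B MDVR and 7.04, 6.28 and 6.17 in H660, higher by 0.54 ± 0.12 (SE, limma, adjusted p = 0.00797). No libraries of the lines overlapped, although without the H660 control the difference was 0.48 and the adjusted p was 0.0502. DNMT3B (ENSG00000088305, chromosome 20, 32762385 to 32809356, plus strand) was at 5.53, 5.23 and 7.01 FPKM in C4-2B MDVR and 7.42, 6.07 and 6.63 in H660. Its ranges overlapped and its difference of 0.16, with an interval from −0.19 to 0.51, did not pass (limma, adjusted p = 0.354). The ratio of DNMT1 to DNMT3A was 2.81 to 5.26 in C4-2B MDVR and 6.72 to 7.65 in H660.

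KDM1A (ENSG00000004487, chromosome 1, 23019443 to 23083689, plus strand), the histone demethylase, had the smallest log2 range of the 10 with each line's mean removed. It was at 21.3, 19.1 and 19.8 FPKM in C4-2B MDVR and 31.3, 29.2 and 28.9 in H660, a difference of 0.55 ± 0.095 (SE, limma, adjusted p = 0.00265). It held rank 2 of the 10 by mean FPKM in both lines. Its paralog KDM1B was at 13.5 to 16.3 FPKM in C4-2B MDVR and 4.51 to 5.03 in H660, so that the ratio of KDM1A to KDM1B was 1.21 to 1.47 in the former and 5.80 to 6.94 in the latter. SMARCA4 (ENSG00000127616, chromosome 19, 10960825 to 11079426, plus strand) was at 14.0, 12.8 and 9.01 FPKM in C4-2B MDVR and 30.6, 26.1 and 24.7 in H660. Every H660 library exceeded every C4-2B MDVR library, and the difference was 1.14 ± 0.15 (SE, limma, adjusted p = 0.000752), or 2.27 times. SMARCA2, the alternative ATPase, was lower than SMARCA4 in both lines, at 1.63 to 1.92 FPKM in C4-2B MDVR and 2.34 to 2.88 in H660. SMARCA2 too was higher in H660, by 0.39 ± 0.12 (SE, limma, adjusted p = 0.0280), and its libraries did not overlap.

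**Figure D2:**
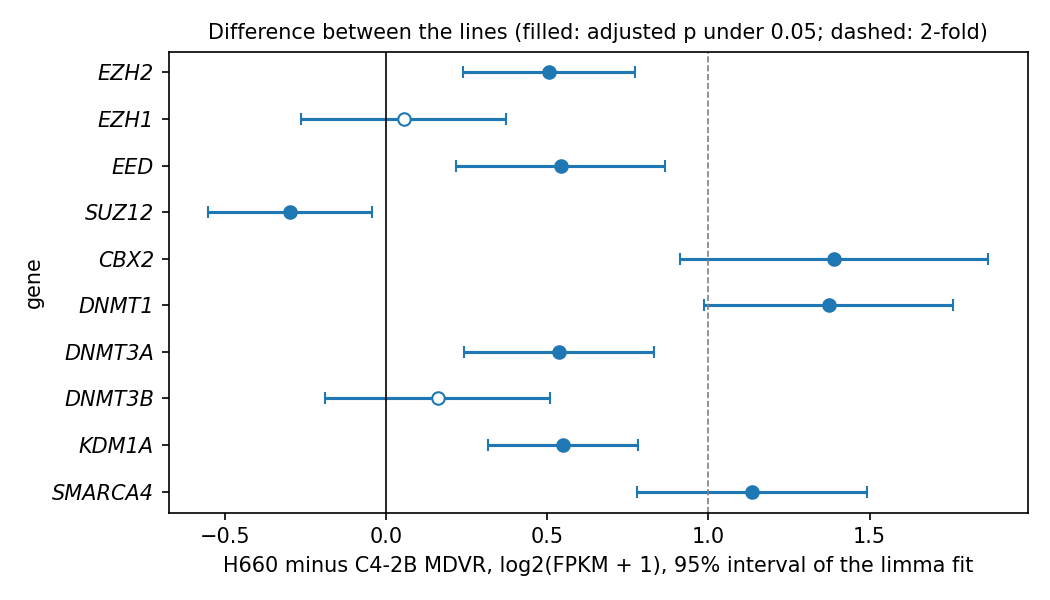
Difference of each regulator between the lines, H660 minus C4-2B MDVR, on the log2(FPKM + 1) scale over 3 libraries a line, with the 95% interval of the limma fit; filled points passed an adjusted p of 0.05 and the dashed line marks 2-fold. CBX2, DNMT1 and SMARCA4 lie beyond 2-fold at 1.39, 1.37 and 1.14, SUZ12 lies below 0 at −0.30, and the intervals of EZH1 and DNMT3B span 0.

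The 3 members CBX2, DNMT1 and SMARCA4 passed and also reached 2-fold, 3 of 10 against 38.0% of all genes tested, or 20.1% counting those higher in H660. The libraries of the lines did not overlap for 7 of 10, all higher in H660, against 74.5% of all genes in either direction and 37.1% with H660 higher. In C4-2B MDVR the order of mean FPKM was SUZ12, KDM1A, DNMT1, EZH2, SMARCA4, CBX2, DNMT3B, EZH1, DNMT3A and EED. Each of the first 4 overlapped in range with the next, as did SMARCA4 with CBX2, DNMT3B with EZH1 and EZH1 with DNMT3A. In H660 the order was DNMT1, KDM1A, CBX2, SMARCA4, EZH2, SUZ12, DNMT3B, DNMT3A, EZH1 and EED. There KDM1A overlapped with CBX2, CBX2 with SMARCA4, DNMT3B with DNMT3A and EZH1 with EED. DNMT1 stood clear above the rest by FPKM in that line. The length used in FPKM is the union of all annotated exons, 15778 bases for SMARCA4 and 5440 for KDM1A. SMARCA4 had 11957 fragments in the H660 control against 4215 for KDM1A, so both orders depend on annotated length. Mitochondrial genes took a larger share of H660 libraries. With these genes and short RNAs left out together, the median difference of all genes moved from −0.0035 to 0.26. The part of each in that move was not separated. All passing genes split 6821 higher to 4213 lower in that fit, against 5507 to 5408. Relative to that median EZH2 was at 0.52, CBX2 at 1.41, DNMT1 at 1.40, SMARCA4 at 1.15 and SUZ12 at −0.28.

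The partners of PRC2 differed in both directions. Of 11 tested, 3 were higher in H660, 5 lower and 3 did not pass, with a median of 0.16. The 8 that passed are near the background of 69.8%, and the number higher depends on the scaling: it was 4 with quantile scaling or voom and 6 without mitochondrial genes and short RNAs, with 5 lower in each. KDM6A, a demethylase that removes the PRC2 mark, was at 31.7 to 37.2 FPKM in C4-2B MDVR and 5.27 to 6.20 in H660, a difference of −2.35 ± 0.10 (SE, limma, adjusted p = 1.22e-05). The ratio of EZH2 to KDM6A was 0.375 to 0.487 in C4-2B MDVR and 3.08 to 3.89 in H660. PHF19, an accessory subunit that brings PRC2 to DNA, ran the other way, from 1.73 to 2.88 FPKM to 14.5 to 16.1, a difference of 2.30 ± 0.15 (SE, limma, adjusted p = 5.26e-05). EPOP and LCOR, the other partners with large differences, were lower in H660 by log2 differences of −1.74 and −1.38.

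Among PRC1 genes, 3 of 22 were higher in H660, 6 lower and 13 did not pass, a smaller share passing than the background of 69.8%. Of all genes tested, 35.2% were higher and 34.6% lower. The median of the 22 was −0.036. That median lay under the median of all genes by 0.033 to 0.082 under the 4 scalings tried, and its own sign was positive, at 0.20, without mitochondrial genes and short RNAs, where 5 genes were higher and 5 lower. CBX7 and L3MBTL2 differed by −0.84 and −0.83 (limma, adjusted p = 0.00260 and 0.00197). PHC2, a polyhomeotic subunit, was higher in H660 by 1.03 ± 0.13 (SE, limma, adjusted p = 0.000631). CBX7 shares 17.9% and L3MBTL2 16.3% of exon bases with genes of the other strand, and whether the counting used strand is not given in the sources used here.

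Of 13 partners in DNA methylation tested, 9 were higher in H660, 1 lower and 3 did not pass, with a median of 0.58. The 10 that passed are near the background of 69.8%, and the 9 stand against 35.2% of all genes higher. Among them, 2 entered the test only through their H660 level, and of the other 11, 7 were higher and 1 lower. UHRF1, which brings DNMT1 to hemimethylated sites, was at 9.08, 5.0 and 8.90 FPKM in C4-2B MDVR and 35.7, 34.3 and 31.5 in H660. Its difference was 2.04 ± 0.20 (SE, limma, adjusted p = 0.000253). MBD3, a member of the methyl-CpG-binding domain family, was higher by 1.12. TET1, which oxidises methylcytosine and is 1 of the 2 that entered through H660 alone, was at 0.481 to 0.749 FPKM in C4-2B MDVR and 1.74 to 2.67 in H660. TDG, the glycosylase that takes out the oxidised base, was the 1 gene lower, at −1.01 ± 0.16 (SE, limma, adjusted p = 0.00166). In all, 12 proliferation genes were measured beside them: 8 were higher in H660, 1 lower and 3 did not pass, with a median of 0.76, against the same 35.2% and 34.6% of all genes. PCNA, the replication clamp, was at 78.7 to 118 FPKM in C4-2B MDVR and 331 to 338 in H660, and TOP2A at 11.1 to 21.3 against 86.8 to 104. MKI67 was higher by 0.76, while CDK1 at −0.20 did not pass. The part of proliferation in the differences of DNMT1, UHRF1 and EZH2 was not tested.

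Of 13 LSD1 partners, 5 were higher in H660, 4 lower and 4 did not pass, with a median of 0.093. Of all genes tested, 35.2% were higher and 34.6% lower. Among the 13, 1 entered the test only through its H660 level, and of the other 12, 4 were higher, 4 lower and 4 did not pass. That gene was INSM1, a neuroendocrine transcription factor that binds LSD1 complexes and one of the neuroendocrine markers above. It was listed at 0 in all C4-2B MDVR libraries and stood at 17.6, 15.4 and 17.4 FPKM in H660, so the filter fixed its direction. GFI1, another factor that recruits LSD1, and HDAC2 were higher by 1.61 and 1.58, and HMG20B was lower by a log2 difference of −2.08. Of 25 SWI/SNF genes tested beside SMARCA4, 10 were higher, 4 lower and 11 did not pass, with a median of 0.24, a smaller share passing than the background of 69.8%. Of the 24 that reached a mean of 1 FPKM in both lines, 9 were higher and 4 lower. Without mitochondrial genes and short RNAs 16 of the 25 were higher and 3 lower, with a median of 0.51, or 0.25 above that of all genes. ACTL6B, the subunit of neuronal SWI/SNF complexes, entered the test only through its H660 level, so the filter fixed its direction. It was at 0 to 0.0515 FPKM in C4-2B MDVR and 8.63 to 9.65 in H660, or 0.282 to 0.311 of the level of its counterpart ACTL6A. SMARCC1 was higher by 1.40 ± 0.17 (SE, limma, adjusted p = 0.000569), whereas SMARCD3 and SMARCD2 were lower by log2 differences of −2.62 and −1.56. SMARCE1, a core subunit, read at most 0.354 FPKM and was not tested. It shares 19.8% of its exon bases with other genes of its strand, and how the counting treated such reads is not known, so its level is uncertain.

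**Figure D3:**
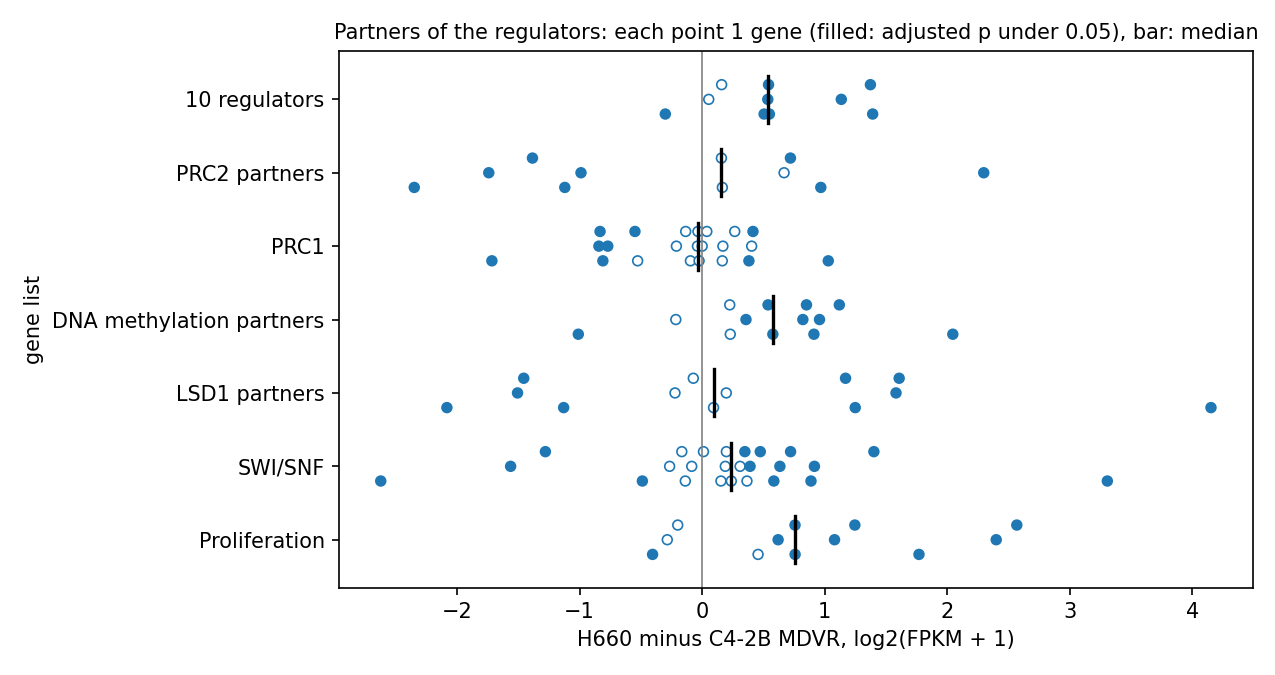
Difference between the lines, H660 minus C4-2B MDVR on the log2(FPKM + 1) scale, for the 10 regulators and 6 lists, each point 1 tested gene; filled points passed an adjusted p of 0.05 by limma and the bar is the list's median. The medians are 0.54 for the regulators, 0.58 for partners in DNA methylation, 0.76 for proliferation genes and −0.036 for PRC1.

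HOX genes are classical targets of Polycomb. Of the 28 tested, 16 entered the test only through their level in H660 and 8 only through that in C4-2B MDVR, against 2750 and 1692 of all genes, so the filter fixed their direction and they are given as levels. The other 4, HOXA10, HOXB6, HOXB7 and HOXB9, reached a mean of 1 FPKM in both lines and were higher in H660. Of all 11196 genes that reached it in both, 27.4% were higher. HOXB6 and HOXB9 reached it narrowly in C4-2B MDVR, at 1.11 and 1.36 FPKM. In the HOXB cluster on chromosome 17, 4 genes reached a mean of 1 FPKM in C4-2B MDVR and 8 in H660. HOXB2 was at 56.3 to 67.9 FPKM in H660 against 0 to 0.106. HOXB13, a prostate homeobox gene, was at 108 to 213 FPKM in C4-2B MDVR and 0.184 to 0.336 in H660. In the HOXC cluster on chromosome 12, 5 genes reached it in C4-2B MDVR and 0 in H660, with HOXC6 at a mean of 8.10 FPKM against 0.0114. In HOXA, 2 genes reached it in C4-2B MDVR and 8 in H660, among them HOXA9 at 13.4 to 18.5 FPKM in H660 against 0 to 0.0796, and in HOXD these numbers were 1 and 4. HOXA9 shares 15.9% of its exon bases with another gene of its strand and 13.9% with the other strand. Of 11 germline genes silenced by promoter methylation in most tissues, 3 passed the filter, each through 1 line alone. TDRD1 was at 0.0567 to 0.303 FPKM in C4-2B MDVR and 5.29 to 6.44 in H660. HORMAD1 was listed at 0 in C4-2B MDVR and stood at 3.11 to 3.59 FPKM in H660, and SYCP3 was at 0.691 to 2.24 and 0.0222 to 0.0710 FPKM. Neither histone marks nor DNA methylation were measured here.

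**Figure D4:**
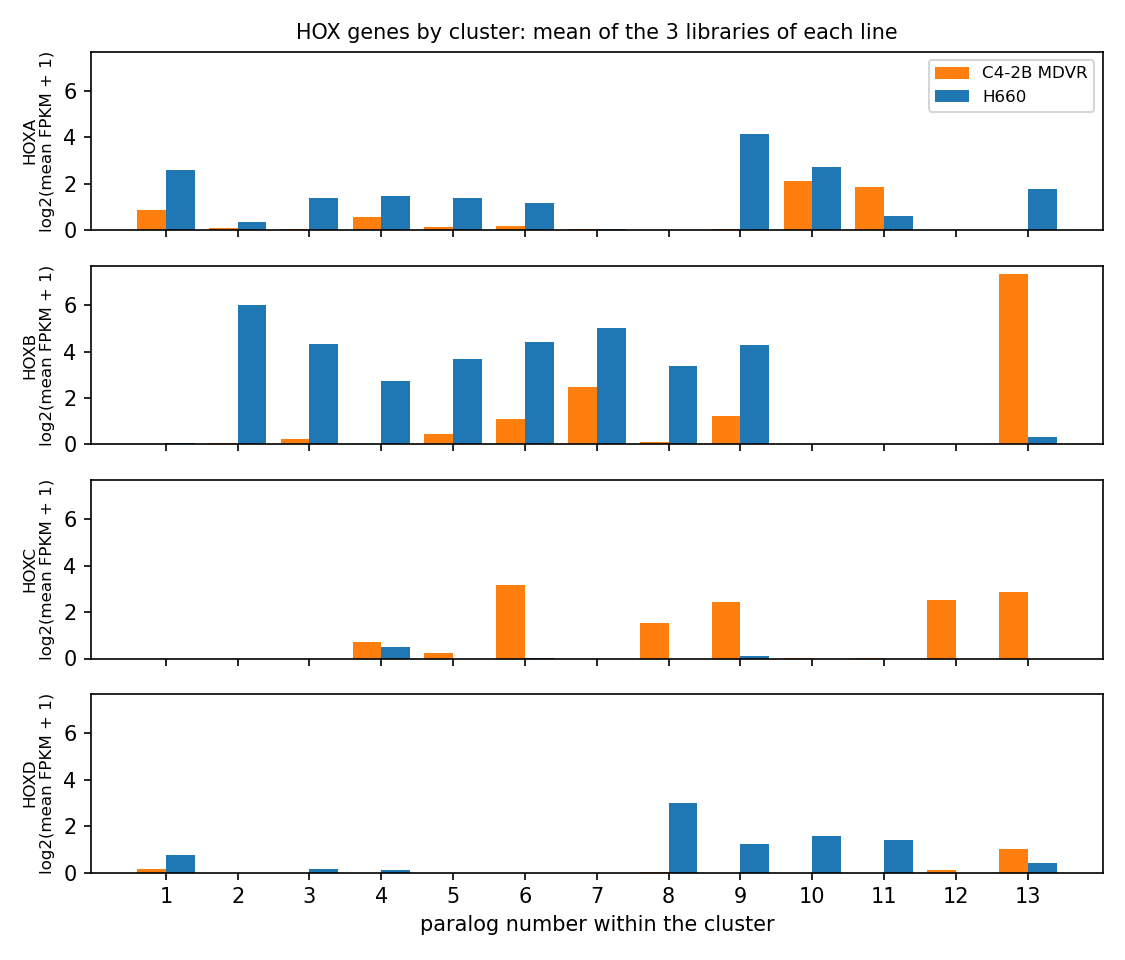
Mean level of each HOX gene over the 3 libraries of a line, as log2(mean FPKM + 1), by cluster and paralog number; orange bars are C4-2B MDVR and blue bars H660, and an empty place is a gene at or near 0 or a number the cluster lacks. HOXB2 to HOXB9 stand high in H660 alone or mostly, HOXC6, HOXC8, HOXC9, HOXC12 and HOXC13 in C4-2B MDVR, and HOXB13 is the tallest C4-2B MDVR bar.

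PLXND1 siRNA moved none of the 10 past the test. With both lines together, in each line and for the difference between lines, 0 of 10 passed by limma, and 0 of the 15638 genes did (0.0%). At an unadjusted p under 0.05 there were 0 members too, against 4.18% of all genes with both lines together, 5.89% in C4-2B MDVR, 4.14% in H660 and 4.48% for the difference, and voom on the recovered fragments also called 0 genes. PLXND1 itself did not pass either. No member changed at least 2-fold the same way with both siRNAs, against 1.13% of genes in C4-2B MDVR and 0.703% in H660. The 95% intervals of the mean change with both lines together stayed within −0.71 and 0.51 for all 10. Intervals within a line were wider. That of CBX2 ran from −0.70 to 1.01 in C4-2B MDVR and from −1.01 to 0.71 in H660, and that of DNMT1 from −1.04 to 0.39 in H660. A 2-fold change within a line is thus not excluded for these genes.

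DNMT1, KDM1A and SMARCA4 lay below their control in all 4 siRNA libraries, against 10.1% of all genes, and SUZ12 lay above in all 4, against 10.7%. DNMT1 held 66.8% of the control level with siRNA 1 in C4-2B MDVR (95% counting interval 63.5 to 70.2%) and 99.0% with siRNA 2. In H660 it held 82.3% and 76.9%. The siRNA 2 library thus stood at 148% of the siRNA 1 library in C4-2B MDVR (counting interval 141 to 156%) and at 93.5% in H660 (90.9 to 96.1%). SMARCA4 had the opposite order of siRNAs in C4-2B MDVR, at 91.6% with siRNA 1 and 64.4% with siRNA 2, and held 85.2% and 80.6% in H660. Its change with both lines together was −0.31 ± 0.15 (SE, limma, adjusted p = 0.985). KDM1A held between 89.5% and 93.1% in all 4. SUZ12 stood at 123% and 113% in C4-2B MDVR and 126% and 112% in H660, the same order of the siRNAs in each line.

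**Figure D5:**
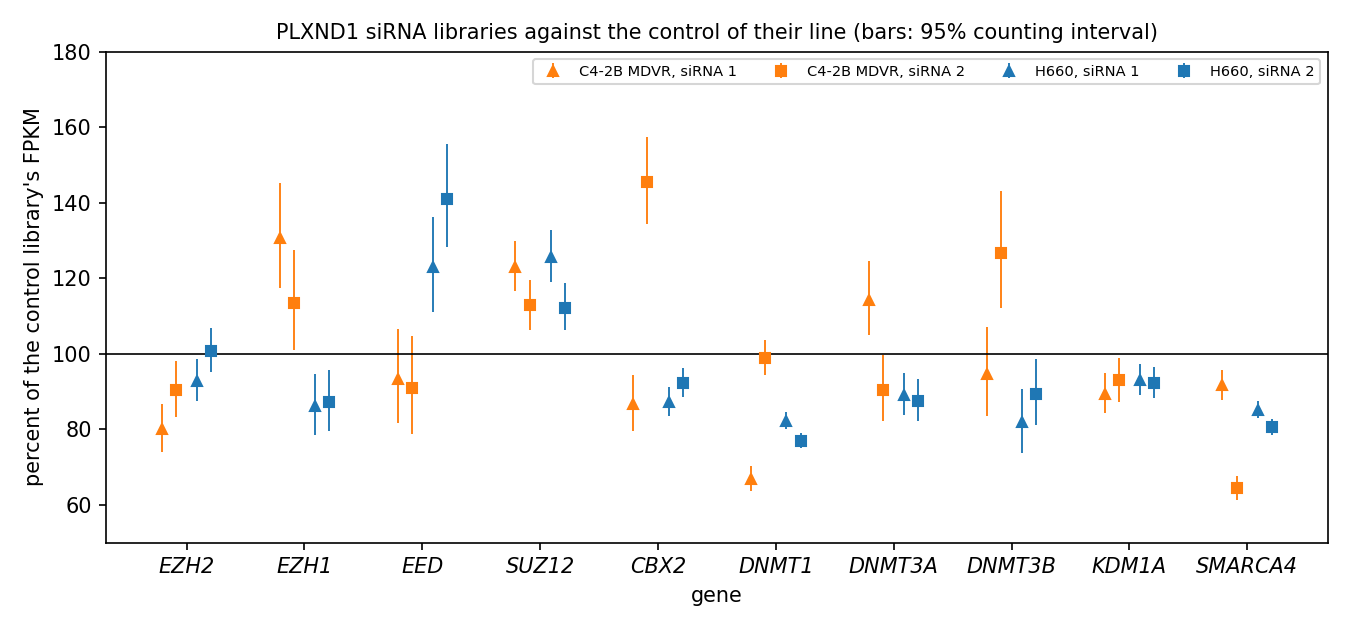
Level of each regulator in the siRNA libraries as a percent of the control library of the same line, with 95% binomial counting intervals; triangles are siRNA 1, squares siRNA 2, orange C4-2B MDVR and blue H660. Most points lie between 80 and 125%; CBX2 with siRNA 2 at 145%, SMARCA4 with siRNA 2 at 64.4% and DNMT1 with siRNA 1 at 66.8% in C4-2B MDVR, and EED with siRNA 2 at 141% in H660, lie farthest from 100%.

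CBX2 differed most between siRNAs. In C4-2B MDVR it stood at 86.6% of control with siRNA 1 and 145% with siRNA 2, the 1 member whose siRNA libraries were at least 1.5-fold apart, against 17.9% of genes in that line. In H660 it held 87.2% and 92.2%, and 0 of 10 members were that far apart, against 4.88%. The sign of its mean change in C4-2B MDVR thus depends on 1 library: 0.16 with both siRNAs and −0.19 without siRNA 2. The median log2 change of the 12 proliferation genes parted in C4-2B MDVR too, at −0.35 with siRNA 1 and 0.23 with siRNA 2. Over all genes these medians were 0.0078 and 0.013. Not every gene parted: 4 of the 12 lay below control with both siRNAs and 1 above with both. In H660 the medians of the 12 were 0.026 and −0.047. UHRF1 in C4-2B MDVR stood at −0.75 with siRNA 1 and −0.026 with siRNA 2 on the same scale. The part of proliferation in the siRNA difference of DNMT1 was not tested.

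EZH2 held 80.0% and 90.4% of control in C4-2B MDVR and 92.8% and 100.7% in H660. EZH1 was above control in C4-2B MDVR, at 131% and 113%, and below in H660, at 86.3% and 87.2%. EED went the other way, at 93.4% and 90.9% in C4-2B MDVR and 123% and 141% in H660. Neither difference between lines passed (limma, adjusted p = 0.985 for each). DNMT3A stood at 114% and 90.4% in C4-2B MDVR and 89.2% and 87.6% in H660, and DNMT3B at 94.6% and 127% against 81.8% and 89.4%. In H660, 7 of 10 members lay below control with both siRNAs, against 39.2% of genes, and in C4-2B MDVR 5 of 10, against 25.6%. Both siRNA ratios of a line share its 1 control library. Above control with both siRNAs were EED and SUZ12 in H660, against 33.9% of genes, and EZH1 and SUZ12 in C4-2B MDVR, against 33.8%.

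No gene of the partner lists passed in any knockdown comparison. Among PRC2 partners, MTF2, which guides PRC2 to CpG islands, stood at 4.85, 7.62 and 8.51 FPKM in C4-2B MDVR and 6.37, 8.45 and 8.55 in H660, above control in all 4. EPOP was at 18.2, 12.3 and 12.0 FPKM in C4-2B MDVR and 4.45, 3.12 and 2.95 in H660, below control in all 4. For both lines together these were 0.50 ± 0.12 and −0.49 ± 0.10 (SE, limma, adjusted p = 0.985 for each). BMI1, a PRC1 core subunit, was at 4.01 FPKM in the H660 control and 10.1 and 7.98 with the siRNAs, and at 5.87, 4.83 and 4.40 in C4-2B MDVR (limma, adjusted p = 1.0 in H660). BMI1 shares 23.3% of its exon bases with the readthrough gene COMMD3-BMI1, so reads of the 2 are not told apart there. PHF1 in C4-2B MDVR was at 9.39, 22.6 and 11.5 FPKM, high in the siRNA 1 library alone.

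Over the 6 libraries with each line's mean removed, the genes whose log2(FPKM + 1) followed CBX2 most closely were GTPBP4, SEL1L3 and TMEM201, each at a Pearson r of 0.999. For EZH2 they were TRMT1 at 0.999, UXT at 0.998 and DLL3 at 0.994. These were the highest of 5759 genes over 6 points that share 2 controls, so they describe the libraries and carry no test. DLL3, a Notch ligand found in neuroendocrine tumours, stood at 10.4, 6.66 and 8.65 FPKM in C4-2B MDVR and 36.0, 32.4 and 38.1 in H660.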

How the data were processed

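The 6 libraries came from paired reads of 150 bases, per the labels' protocols. HISAT, Cufflinks and the build hg18 are named, with no versions, per the submitters' processing notes. The deposited values are FPKM (fragment numbers scaled by exon length and library size), computed by the authors for 58735 gene IDs. All of these are in GENCODE release 29, which gave names and exon lengths, each the union of a gene's annotated exons. FPKM times exon length gave whole fragments, within 0.05, in 100.0% of genes of up to 100 fragments (11224 to 13428 genes a library). Each library carries a further factor that the notes do not explain, and it was left in. The library size implied by the FPKM was 20733178 in the C4-2B MDVR control, against 20502382 fragments recovered. With siRNA 1 in that line it was 20139104 against 21748669, and with siRNA 2 16242467 against 17655802. In every H660 library the implied size was the larger. Percents of control and line differences carry this factor, and its part in them was not tested. The members' fragment numbers ran from 336 to 13076, and 95% intervals from them (exact Poisson for levels, exact binomial for ratios of 2 libraries) cover counting error only.

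Tests ran on log2(FPKM + 1), a scale that understates changes of low genes, in limma 3.58.1 in R 4.3.3. The 15638 genes with a mean of at least 1 FPKM over the 3 libraries of either line entered, and p-values (moderated, intensity trend, two-sided) were adjusted by Benjamini-Hochberg at 0.05. The line difference and the knockdown in both lines came from an additive fit with 3 residual degrees of freedom. Knockdown in each line and its difference came from a fit of 4 groups with 2, which takes each single control to vary like the siRNA pairs. The limma code was tested on simulated data. Alternatives were another pseudocount, 2 other filters, quantile scaling, rescaling without mitochondrial genes and short RNAs, voom on recovered fragments, a 4-group fit for the line difference, the siRNA number as a block and leaving out each library.

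The 10 members, the gene lists and the tests were chosen with earlier results of these data known, and the paralogs set against members as ratios and the split of HOX genes by cluster were chosen after their values were seen. Named partners were up to 4 per list with the largest passing line difference and up to 2 with the largest same-sign change with both siRNAs in each line, of which a part is given. Genes closest to a member were sought for EZH2 and for the member with the largest range within a line, among protein-coding genes of at least 5 FPKM in both lines. Some items that the rules take are not reported here.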

Additional observations from a re-analysis of the deposited data

Results flagged for a closer look

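EZH1 and EED were set apart because the siRNA libraries of one line all lay above their control and those of the other line all below. For EZH1 the change in H660 minus that in C4-2B MDVR was −0.41 on the log2(FPKM + 1) scale. For EED it was 0.42. Neither difference passed in the interaction fit (limma, adjusted p = 0.985 for each), and each line's direction rests on 1 control library.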

How the results depend on the processing

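Of 1435 recomputed values of single genes, 1390 kept their sign and side of the threshold, 14 changed side and 31 changed sign. All 14 that changed side were among the 139 line differences of members, of which 123 kept both sign and side. The 31 were members' values that had not passed, 29 of them in knockdown comparisons. EZH2, CBX2, DNMT1, KDM1A and SMARCA4 were higher in H660 in all 14 other analyses. SUZ12 lost its call in 10 of them, among them quantile scaling (limma, adjusted p = 0.335), voom (0.0627) and the fit without mitochondrial genes and short RNAs (0.873). That fit added DNMT3B, at 0.41 (adjusted p = 0.0274), with the median of all genes at 0.26. EED was not tested at a mean of at least 5 FPKM. Requiring 2-fold left 3 members and 5946 genes with a line difference in place of 8 and 10915, and a mean of at least 5 FPKM left 6963 genes.

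Knockdown counts moved with the filter. In C4-2B MDVR, 3 genes passed at a mean of at least 5 FPKM, 851 without a filter and 2 without mitochondrial genes and short RNAs. In H660 these were 2 at 5 FPKM, 876 without a filter, and 1 each with a pseudocount of 0.1, with quantile scaling and with the replicate block. Without a filter 1372 genes passed for the difference between lines. That fit took in 34007 genes, and those it added had a mean under 1 FPKM in both lines. With the filter 0 of 15638 passed in each of these comparisons, so the large counts may rest on genes near 0. The 2-fold count with both siRNAs was 146 in C4-2B MDVR, 273 with a pseudocount of 0.1 and 72 without mitochondrial genes and short RNAs, and 98, 223 and 42 in H660. None of these calls was one of the 10 members.

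The siRNA 1 minus siRNA 2 differences of the lines correlated at −0.004 (Pearson r) over 15638 genes. Each difference rests on a single library per siRNA, so this value cannot tell whether equal numbers stand for the same siRNA. When the line fit was blocked by these numbers, 7 of 10 members had a line difference, SUZ12 being lost (limma, adjusted p = 0.0594).

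Leaving out 1 library turned the sign of values that had not passed. EZH1's line difference ranged from −0.082, without either control, to 0.14. The knockdown in both lines ranged for EZH1 from −0.17 (without the C4-2B MDVR control) to 0.24, for EED from −0.090 (without the H660 control) to 0.33 and for DNMT3B from −0.20 to 0.11 (without the H660 control). CBX2 in C4-2B MDVR ranged from −0.19 (without siRNA 2) to 0.50. Counting error was small beside this: the 95% interval reached 10.9% of the level to either side for the member with fewest fragments and 1.72% for the one with most.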
